A study of Mus musculus with 6 samples.

Results

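The genes described here are 38 components of Wnt signalling, chosen by name: 11 ligands, 12 receptors (10 Frizzleds with Lrp5 and Lrp6), 4 Tcf/Lef transcription factors, 5 targets and feedback regulators, and 6 secreted modulators. All 38 are among the 42396 genes of the count tables. The filter on low counts left 32 of them among 17439 tested genes. None of the 32 differed between knockdown and control cultures at the threshold. The transcription factor genes Tcf7l2 and Lef1 and the target gene Sp5 differed several-fold across the replicate numbers of the libraries, in the same way in both groups.

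Wnt proteins are secreted, lipid-modified ligands that bind a Frizzled receptor together with the co-receptor Lrp5 or Lrp6. In the canonical branch this stabilises beta-catenin, which enters the nucleus and activates target genes through Tcf and Lef factors. Other branches act on cell polarity and movement without beta-catenin. In the embryonic midbrain, Wnt1 patterns the region and supports dopamine neuron precursors, and Wnt5a acts on the differentiation of dopamine neurons.

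RNA sequencing was done on primary cultures of ventral midbrain, dissected from wild-type mouse embryos at embryonic day 14 and plated at 150000 cells per well. On the day of plating, both groups received a lentivirus at a multiplicity of infection of 5. The virus of the 3 control libraries expressed a scramble hairpin (pll3.7-Scr2), and that of the 3 knockdown libraries a hairpin against circRmst (pll3.7-shRmstI), a circular RNA from the Rmst gene. RNA from 2 to 3 wells per condition was taken at day 3 in vitro. The labels name 3 independent cultures and give each library a number from 1 to 3 within its group, but do not say that libraries of 1 number share a culture. In the comparison of the groups, the p-values rest on the spread between libraries of a group. Across the numbers, they rest on the spread left between libraries of the same number once the group is taken into account. If those libraries share a culture, that is not the spread between cultures.

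Libraries held 27248934 to 43646521 counts. One count was worth between 0.0230 and 0.0360 CPM, the unit of counts scaled to library size, here with TMM factors between libraries. Rmst itself was at 115 to 124 CPM in the control and 97.1 to 115 CPM in the knockdown; this value pools the linear and circular RNAs of the gene, so it does not check the knockdown. The labelled cell type is dopamine neurons, and their markers were present: Th, the rate-limiting enzyme of dopamine synthesis, ran from 36.9 to 60.9 CPM and Slc6a3, the dopamine transporter, from 45.6 to 71.5 CPM. Genes of radial glia, dividing cells and the oligodendrocyte lineage were present too, so these are mixed cultures. In such bulk RNA, fewer cells of a type and less RNA per cell cannot be told apart.

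Per transcript length, as FPKM (fragments scaled to transcript length and library size), Tcf7l2 and the receptor gene Fzd3 led the 38 genes. Tcf7l2 had a mean of 19.0 FPKM over the 6 libraries but a range from 7.68 to 42.4 FPKM. Fzd3, whose receptor guides axons and neuron migration through the polarity branch, had a mean of 18.6 FPKM and a narrow range from 16.7 to 20.6 FPKM. Next came the receptor gene Fzd1 (8.82 to 15.4 FPKM) and Wnt5a (9.20 to 12.1 FPKM), whose ranges overlapped each other. The range of Fzd1 lay below that of Fzd3. Wnt7b (6.99 to 9.20 FPKM) was the second ligand, and Lrp6 (6.73 to 7.74 FPKM) was above Lrp5 (1.57 to 1.98 FPKM) with no overlap. The secreted modulators Sfrp1 (5.02 to 6.43 FPKM) and Dkk3 (4.88 to 6.09 FPKM) overlapped with the feedback gene Axin2 (4.09 to 6.12 FPKM). Below a mean of 1 FPKM lay Rspo3, Sp5, Fzd4, Lgr5, Rspo2, Wnt2b, Fzd10, Fzd5, Wnt11, Tcf7, Wnt1, Wnt8b, Dkk1, Notum and Wnt3a. Fzd6, which has 2 entries, had a mean of 1.52 FPKM summed over both.

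**Figure D1:**
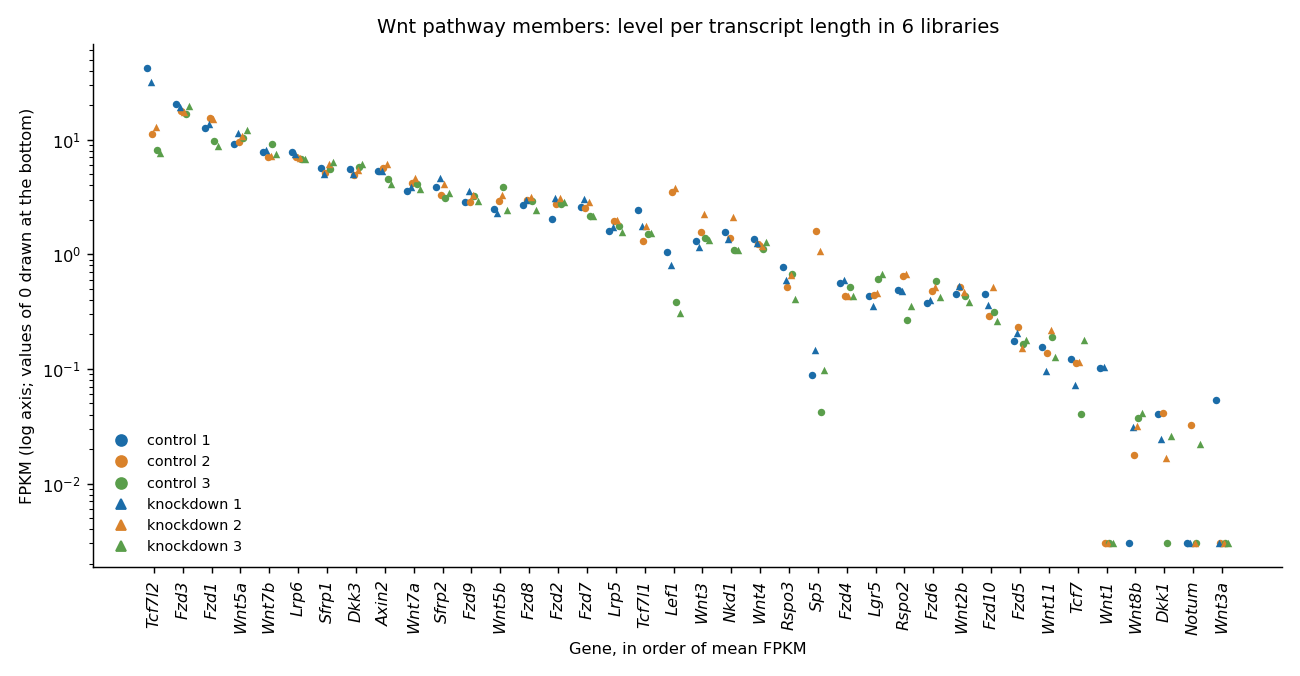
Level per transcript length (FPKM, log axis) of the 38 genes in each of the 6 libraries, ordered by mean; colours are replicate numbers, circles control and triangles knockdown, and values of 0 are drawn at the bottom. Most genes form tight columns, while Tcf7l2 (7.68 to 42.4 FPKM), Lef1 (0.305 to 3.80 FPKM) and Sp5 (0.0423 to 1.60 FPKM) spread by colour; Fzd6 shows its chromosomal entry alone.

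Counts were too low for the test, or lacking, in 6 genes. Wnt1, the ligand of the dorsal midline and the isthmus, had 14 counts in control replicate 1 and 15 in knockdown replicate 1, and 0 in the other 4 libraries. Its level in both libraries of number 1 was at least 3.17-fold higher than the floor of 3 counts per library in any of the other 4. Wnt3a, a dorsal midline ligand, had 9 counts in control replicate 1 and 0 in each of the other 5. Neither gene was thus found outside number 1 at this depth. Wnt8b had 1 to 9 counts per library. Dkk1, an inhibitor that blocks the Lrp co-receptors, had 0 to 6 counts, and Notum, which strips the lipid from Wnt proteins, had 0 to 6.

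Fzd6 has 2 entries in the tables, on chromosome 15 and on an alternate sequence, and both are listed at 0 counts in all 6 libraries. The FPKM tables do hold values for it. Summed over both entries, Fzd6 was at 1.4, 1.58 and 2.30 FPKM in control replicates 1, 2 and 3, and at 1.02, 1.59 and 1.20 FPKM in knockdown replicates 1, 2 and 3. The groups overlapped, with means of 1.76 ± 0.478 FPKM for control and 1.27 ± 0.293 FPKM for knockdown libraries (SD, n = 3 per group; exact permutation test, two-sided p = 0.3, where 0.1 is the smallest that 3 against 3 can give). Its count of 0 is thus no measurement of the gene.

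The comparison of the groups asks how cultures given the hairpin against circRmst differ from those given the scramble hairpin. Whether circRmst was lowered cannot be read from these values. In edgeR's quasi-likelihood test, 0 of the 32 tested genes had an adjusted p under 0.05, over all 17439 genes tested (background 0%), and 0 had an unadjusted p under 0.05 (background 1.1%). DESeq2 and 3 settings of limma on log2 FPKM called 0 of the members they tested too. Under each limma setting 1 member, Wnt5a, had an unadjusted p under 0.05 (0.0308 to 0.0394). Its setting without a filter tested 38 members, beside 1073 of 26952 genes at that level. Without a filter on low counts, edgeR's test had 2 of 37 members under 0.05, beside 588 of 28463 genes. The log2 fold change was positive in 16 of the 32 and negative in 16, and its median was -0.00138, beside -0.00603 over all genes tested. Control and knockdown libraries were fully separate in 1 of the 32 (3.13%), a gene higher in the knockdown, beside 5.2% of all genes, or 2.28% higher and 2.92% lower. The adjusted p of every gene named in this comparison was 1.00.

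Ligands differed little between the groups. Wnt5a, the most abundant ligand, was at 94.1, 95.6 and 103 CPM in control replicates 1, 2 and 3, and at 110, 100 and 122 CPM in knockdown replicates 1, 2 and 3. The highest control library stood above the lowest knockdown library, so the groups overlapped. Its log2 fold change of 0.18 ± 0.10 (SE, 95% interval -0.04 to 0.41) had the smallest unadjusted p of the 32 genes, 0.0932 in edgeR's test. Wnt5b, its close relative, was at 9.25, 11.4 and 14.9 CPM in the control and 9.33, 11.8 and 9.49 CPM in the knockdown, with a log2 fold change of -0.22 ± 0.19. Wnt7b, a canonical ligand of the developing brain, was at 47.5, 42.2 and 57.1 CPM in the control and 49.9, 41.4 and 45.5 CPM in the knockdown, with -0.10 ± 0.13. In Wnt5b and Wnt7b the highest value was that of control replicate 3. The other tested ligands, Wnt2b, Wnt3, Wnt4, Wnt7a and Wnt11, had log2 fold changes between -0.09 (Wnt3) and 0.01 (Wnt7a).

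Among the receptors, only Fzd2 had groups that did not overlap. It was at 12.4, 16.6 and 17.1 CPM in the control and 18.7, 17.7 and 17.8 CPM in the knockdown, a log2 fold change of 0.24 ± 0.14 (SE) that did not pass the test. The knockdown libraries lay close together, and control replicate 1 stood below the rest. Fzd7, which takes part in canonical signalling in progenitors, was at 21, 20.8 and 17.7 CPM in the control and 24.6, 22.3 and 18.1 CPM in the knockdown, with 0.13 ± 0.14. Fzd9 was at 10.8, 10.1 and 11.7 CPM in the control and 13.0, 11.4 and 10.7 CPM in the knockdown, with 0.11 ± 0.14. The abundant receptor gene Fzd3 was at 470, 413 and 382 CPM in the control and 433, 387 and 458 CPM in the knockdown, within the spread of the control. Both co-receptors were as close, with 0.06 ± 0.12 for Lrp5 and -0.00396 ± 0.10 for Lrp6.

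The secreted modulators and the nuclear factors overlapped between the groups as well. Sfrp2, which binds Wnt proteins outside the cell, was at 12.7, 10.4 and 10.3 CPM in the control and 14.9, 12.8 and 11.4 CPM in the knockdown, with a log2 fold change of 0.23 ± 0.15 (SE). Sfrp1, a relative with the same binding domain, was at 42.3, 37.9 and 41.6 CPM in the control and 36.2, 43.4 and 48.3 CPM in the knockdown, with 0.07 ± 0.12. Rspo3, which strengthens Wnt signals by protecting the receptors, was at 3.32, 2.2 and 2.63 CPM in the control and 2.37, 2.58 and 1.65 CPM in the knockdown, with -0.31 ± 0.26. Tcf7 was at 0.561, 0.884 and 0.683 CPM in the control and 0.528, 1.02 and 1.12 CPM in the knockdown, with 0.32 ± 0.39. Tcf7l1, which mainly represses targets, was at 12.7, 7.63 and 9.03 CPM in the control and 10.04, 8.44 and 8.67 CPM in the knockdown, with -0.11 ± 0.19. Axin2, a negative feedback gene widely read as a measure of canonical signalling, was at 42.6, 45.7 and 37.1 CPM in the control and 42.0, 47.1 and 34.1 CPM in the knockdown. Its log2 fold change was -0.03 ± 0.14, with a 95% interval from -0.33 to 0.28.

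Precision differed among the genes in this fit, which holds the group alone. At or above a mean of 1 CPM there were 30 tested genes. The 95% interval stayed inside a 2-fold change, up or down, for 27 of them, where 95.7% of all genes of that level did. It stayed inside a 1.5-fold change for 20 of them (66.7%), beside 78.2% of all. The 3 with wider intervals were Lef1 (-1.97 to 1.79 on the log2 scale), Tcf7l2 (-1.55 to 0.99) and Sp5 (-3.04 to 2.08). Their libraries varied more within each group than between the groups.

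**Figure D2:**
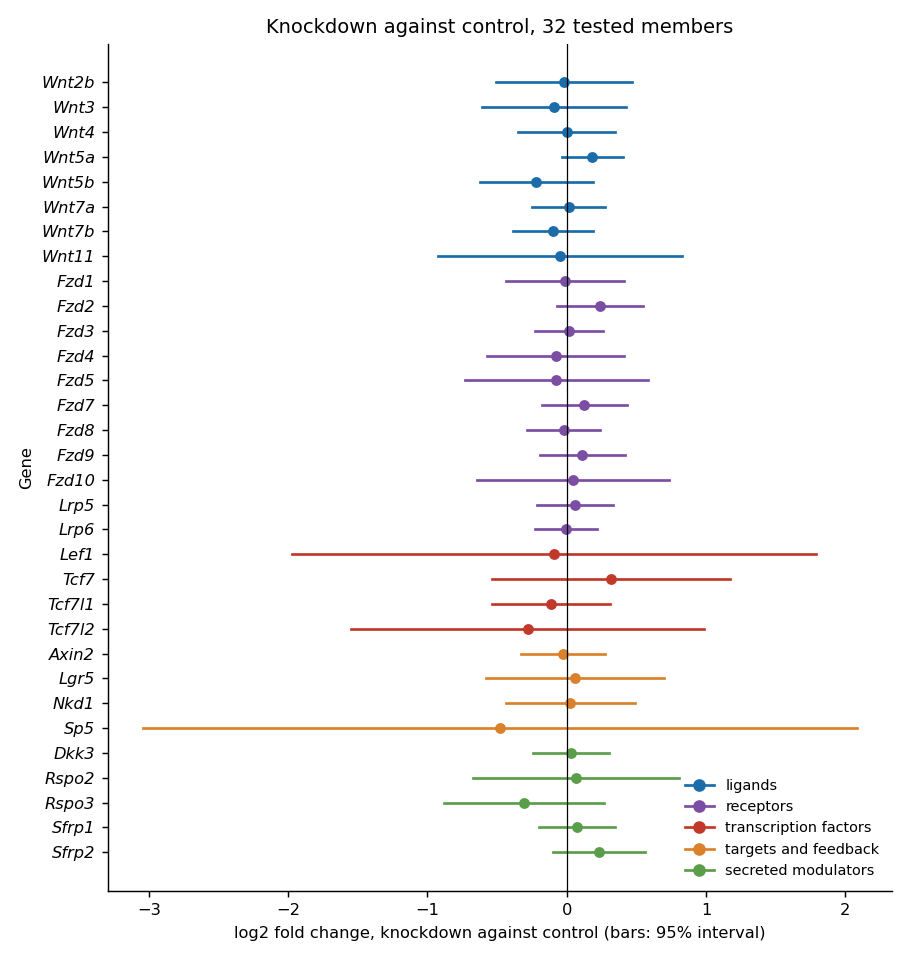
Log2 fold change of the 32 tested genes, knockdown against control, with 95% intervals from edgeR, coloured by role. All intervals cross 0, and those of Lef1, Tcf7l2 and Sp5 are the widest.

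Across the replicate numbers, 3 of the 32 tested genes differed: Lef1, Tcf7l2 and Sp5. This was tested with the group in the design, and each number holds 1 control and 1 knockdown library. The 3 genes are 9.38% of the 32, where edgeR's test called 27 of 17439 genes, or 0.155%, at the same threshold of 0.05 on the adjusted p. Genes called and highest at number 1, as 1 of the 3 was, made up 0.0688% of all genes, and genes called and highest at number 2, as the other two were, 0.0745%. At an unadjusted p under 0.05 there were 8 of the 32 genes (25.0%), beside 8.94% of all genes. The median log2 difference between the highest and the lowest number was 0.36 over the 32 genes and 0.25 over all genes. The members were chosen with earlier results of these data known, so these shares describe the list and support nothing further.

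Lef1 (chromosome 3, 131110297 to 131224357, GRCm38) encodes a factor that binds beta-catenin at target genes and is itself a target of the pathway. It was at 6.32, 23.8 and 1.98 CPM in control replicates 1, 2 and 3, and at 4.96, 23.7 and 1.91 CPM in knockdown replicates 1, 2 and 3. Both libraries of number 2 stood far above the rest, those of number 3 lay lowest, and no number overlapped another. Within the control the highest library was 12 times the lowest, and within the knockdown 12.4 times. The log2 difference of number 2 against number 3 was 3.60 ± 0.19 (SE, edgeR's quasi-likelihood test, adjusted p = 9.42e-05).

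Tcf7l2 (chromosome 19, 55741797 to 55933659) encodes another factor of the family, best known in the central nervous system from neurons of the thalamus and the dorsal midbrain and from oligodendrocytes. It stood at 299, 81.4 and 58.8 CPM in control replicates 1, 2 and 3, and 219, 86.5 and 56.9 CPM in knockdown replicates 1, 2 and 3. The libraries of number 1 were the high ones, in contrast to Lef1, and again no number overlapped another. The log2 difference of number 1 against number 3 was 2.15 ± 0.15 (SE, edgeR, adjusted p = 0.000285). The gene overlaps the long non-coding RNA gene Gm31734 in the annotation, and whether the counting used strand is not stated for these tables.

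Sp5 (chromosome 2, 70474923 to 70477726) encodes a zinc finger factor that is a direct target of beta-catenin. It had 10, 215 and 2 counts in control replicates 1, 2 and 3, and 19, 124 and 11 counts in knockdown replicates 1, 2 and 3. These are 0.244, 5.43 and 0.0719 CPM for the control libraries and 0.436, 3.60 and 0.263 CPM for the knockdown libraries. Both libraries of number 2 were high, as for Lef1, and the other 4 held 19 counts or fewer. Sp5 passed the filter on low counts through these high libraries together with knockdown replicates 1 and 3, which held 19 and 11 counts. The log2 difference of number 2 against number 3 was 4.64 ± 0.54 (SE, edgeR, adjusted p = 0.00469). Its size is uncertain, since control replicate 3 held 2 counts. It was 3.93 without control replicate 2, 3.98 without control replicate 3, 5.66 without knockdown replicate 2 and 6.01 without knockdown replicate 3.

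Leaving out any 1 library kept the log2 difference between 3.49 and 3.71 for Lef1 and between 1.91 and 2.38 for Tcf7l2. For Sp5 it ranged from 3.93 to 6.01. Such a fit leaves 1 number with 1 library, so its calls are no stricter test. The calls of these genes did not hold in limma on log2 FPKM, which called 0 of the 24 to 38 members it tested across numbers under any of 3 settings. There the adjusted p was 0.0617 to 0.204 for Lef1, 0.104 to 0.264 for Tcf7l2 and 0.509 to 0.788 for Sp5. The log2 difference itself stayed between 2.09 and 2.21 for Tcf7l2. With a pseudocount of 0.1 it was 3.09 for Lef1 and 3.07 for Sp5, and with a pseudocount of 1, which understates low genes, 1.80 and 1.12.

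**Figure D3:**
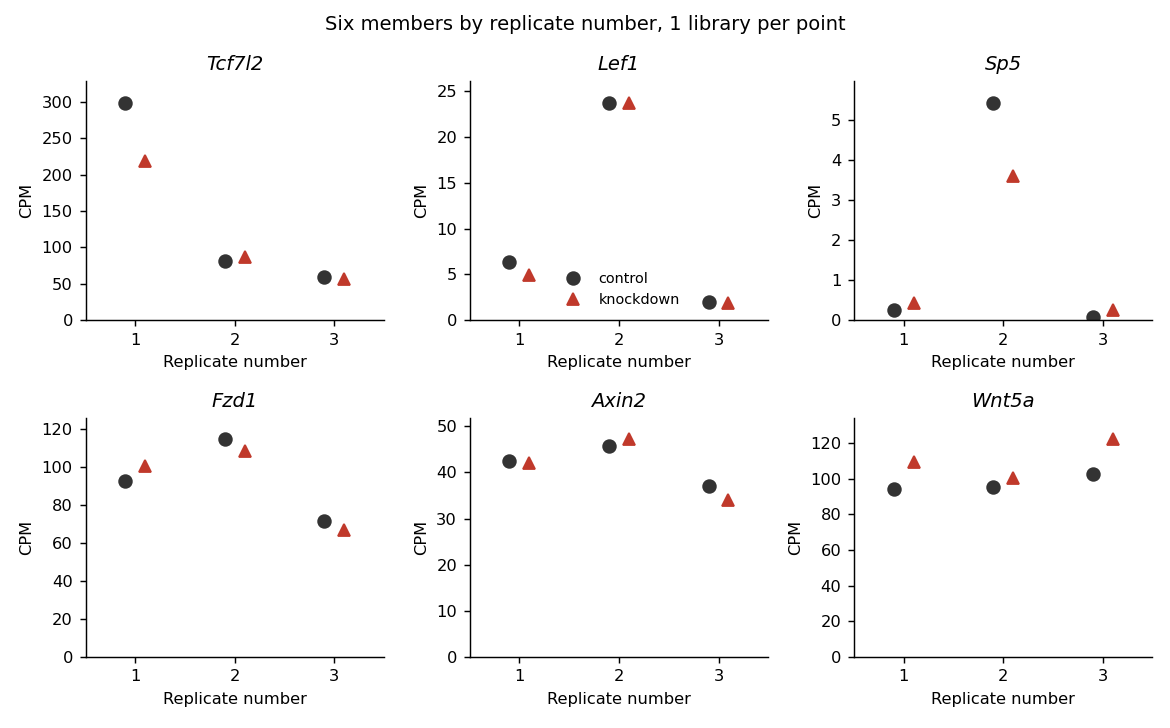
CPM of 6 genes by replicate number, with 1 point per library (control as dark circles, knockdown as red triangles) and every axis starting at 0. Tcf7l2 is high at number 1 (299 and 219 CPM), and Lef1 (23.8 and 23.7 CPM) and Sp5 (5.43 and 3.60 CPM) at number 2, while Fzd1, Axin2 and Wnt5a vary less.

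The stretches of DNA just before the starts of these 3 genes were compared for the core letters of a Tcf/Lef site, since the proteins of Lef1 and Tcf7l2 bind such sites. The letters searched were CTTTGA on both strands (TCAAAG on the opposite strand), in the 250 bases before each annotated start in RefSeq's windows of GRCm38.p6. Of the 38 genes, 24 matched the table, with 32 windows. The letters stand in 6 of these 32 windows, in 6 genes (Sp5, Lef1, Fzd1, Wnt5b, Wnt11 and Dkk1), and in 13.8% of all 32851 windows. Windows with 2 or more matches made up 1.37% of all, and Sp5, Lef1 and Dkk1 each have 1. The longer form CTTTGATC, which contains the first, stands in 0.801% of all windows and in 3 of the 32, 1 each of Sp5, Wnt5b and Wnt11. The 3 genes have 7 windows, of which 4 are printed: that of Sp5, the first of the 4 of Lef1 and its only one with matches, and the first of the 2 of Tcf7l2. They run 5′ to 3′ on the plus strand, on which all 3 genes lie, with matches in capitals and none of a window past the first base of the gene or of that start.
Sp5, chr2:70474673-70474922: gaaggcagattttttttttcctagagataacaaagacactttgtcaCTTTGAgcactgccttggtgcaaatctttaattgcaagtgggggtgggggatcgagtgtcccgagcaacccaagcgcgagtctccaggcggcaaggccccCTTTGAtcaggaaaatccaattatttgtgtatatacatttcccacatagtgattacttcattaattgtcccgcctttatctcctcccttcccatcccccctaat
Lef1, first start, chr3:131110047-131110296: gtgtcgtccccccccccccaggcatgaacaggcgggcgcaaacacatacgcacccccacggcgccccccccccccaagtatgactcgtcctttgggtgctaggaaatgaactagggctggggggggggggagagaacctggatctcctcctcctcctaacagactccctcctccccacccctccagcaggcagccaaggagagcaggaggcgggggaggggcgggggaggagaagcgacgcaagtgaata
Lef1, last start, chr3:131156044-131156293: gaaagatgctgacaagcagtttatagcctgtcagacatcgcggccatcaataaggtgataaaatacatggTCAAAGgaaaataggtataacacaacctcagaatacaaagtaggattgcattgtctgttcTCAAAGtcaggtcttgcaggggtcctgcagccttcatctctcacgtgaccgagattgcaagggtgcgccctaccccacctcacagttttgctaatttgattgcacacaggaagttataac
Tcf7l2, first start, chr19:55741560-55741796: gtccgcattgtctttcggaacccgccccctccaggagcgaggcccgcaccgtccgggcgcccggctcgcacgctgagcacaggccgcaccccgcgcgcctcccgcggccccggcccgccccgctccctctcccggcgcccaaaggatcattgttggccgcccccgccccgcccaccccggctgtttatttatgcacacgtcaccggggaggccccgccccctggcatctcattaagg

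In the Sp5 window the matches begin 204 and 104 bases before the gene, and the nearer one goes on to the longer form. The first 3 Lef1 windows and both Tcf7l2 windows hold no match. The last Lef1 window, before a start inside the gene, has 2 matches, both on the opposite strand, 180 and 120 bases before that start. A match describes the letters only, and no binding was measured here.

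The remaining 29 tested genes did not pass the test across numbers, with log2 differences between 0.14 and 1.00. Fzd1 came closest, at 92.8, 115 and 71.6 CPM in the control and 101, 109 and 67.1 CPM in the knockdown. Its libraries were highest at number 2 and lowest at number 3 in both groups, and its log2 difference was 0.69 ± 0.12 (SE, edgeR, adjusted p = 0.143). DESeq2 gave Fzd1 an adjusted p of 0.00138, and edgeR without a filter on low counts gave 8.52e-05. Other alternatives did not call it. Its adjusted p was 0.148 to 0.187 in edgeR with other scalings and 0.179 in edgeR with at least 1 CPM in 3 libraries. In limma on log2 FPKM it was 0.754 to 0.845 over 3 settings. With any 1 library left out, the log2 difference of Fzd1 in edgeR stayed between 0.63 and 0.75.

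In the fit, several targets and modulators were likewise highest at number 2 and lowest at number 3, without passing the test. Axin2, given above, had a log2 difference of 0.38 ± 0.12 (SE) between these numbers, and the feedback gene Nkd1, at 9.85, 8.57 and 6.91 CPM in the control and 8.09, 11.2 and 6.62 CPM in the knockdown, had 0.55 ± 0.20, although its highest control library was that of number 1. The Nkd1 difference was 0.25 without knockdown replicate 2 and 0.82 without control replicate 2. Rspo2, another enhancer of Wnt signals, was at 2.73, 3.31 and 1.26 CPM in the control and 2.57, 3.19 and 1.98 CPM in the knockdown, with 1.00 ± 0.31. The ligand gene Wnt3 was at 6.56, 8.26 and 5.61 CPM in the control and 5.33, 8.82 and 5.14 CPM in the knockdown, with 0.67 ± 0.20. It overlaps Wnt9b in the annotation, a ligand gene outside the 38 that was noticed after its values were seen: Wnt9b was at 0.195, 0.859 and 0.0719 CPM in the control and 0.184, 0.899 and 0.0717 CPM in the knockdown, too low to be tested.

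Other genes had other orders. Lgr5, the receptor for R-spondins and a target of the pathway, was lowest at number 1 and highest at number 3, with 3.56, 3.92 and 5.07 CPM in the control and 2.83, 3.77 and 6.43 CPM in the knockdown (log2 difference 0.85 ± 0.25, SE). Tcf7l1 was higher at number 1 than at number 2 by 0.49 ± 0.18, Fzd7 higher at number 1 than at number 3 by 0.35 ± 0.13, and Sfrp2 likewise by 0.34 ± 0.15. Number 2 held both highest libraries in 9 of the 32 genes, number 1 in 4 and number 3 in 2. Over all genes the shares were 10.1%, 10.1% and 7.46%. In 20 of the 32 genes (62.5%) the libraries of 1 number stood apart from the other 4, above or below, beside 44.3% of all genes.

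**Figure D4:**
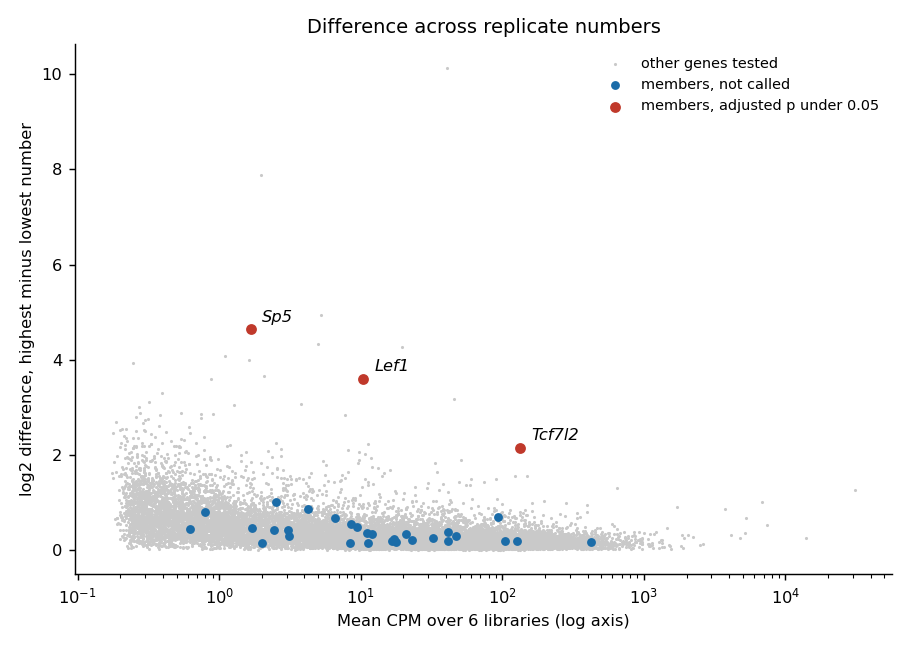
Log2 difference between the highest and lowest replicate number against mean CPM (log axis) for all tested genes (grey) and the 32 Wnt genes. Sp5 (4.64), Lef1 (3.60) and Tcf7l2 (2.15) lie above the cloud of genes at their level, and the other 29 (blue) range from 0.14 to 1.00.

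Markers of the dorsal midbrain moved with the numbers beside these genes. Of 17 genes of the roof plate and dorsal midbrain, 15 were tested and 10 (66.7%) differed across numbers in edgeR's test, where the background is 0.155%. The list was written with earlier results of these data known, so this share describes the list and supports nothing further. Of the 10, 6 were highest at number 1, as was Tcf7l2, and 4 at number 2, as were Lef1 and Sp5. Zic1, a dorsal transcription factor gene, was at 42.8, 15.3 and 2.19 CPM in the control and 39.4, 16.1 and 2.08 CPM in the knockdown (log2 difference of number 1 against number 3 of 4.27, adjusted p = 1.51e-05). Zic4 and Zic2 had the same order, with 4.93 (adjusted p = 0.000134) and 2.83 (adjusted p = 0.000319).

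The genes highest at number 2 were Barhl1, Pou4f2, Tfap2b and Pax7, which encode transcription factors. The summed level of the dorsal list was 257, 329 and 120 CPM in control replicates 1, 2 and 3, and 219, 309 and 140 CPM in knockdown replicates 1, 2 and 3. Its defining gene Gdf7, a growth factor gene of the roof plate, was at 0 to 0.505 CPM, and Msx2 at 0 to 0.0505 CPM. This list was written with earlier results of these data known.

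Other cell types were called less, though not all of their shifts were small. Among 13 lists of cell types, 11 had 0 genes called across numbers, and the forebrain list had 1 of 6, Lhx2, a gene also used in the dorsal midbrain, at 10.1, 20.2 and 6.22 CPM in the control and 10.5, 19.2 and 5.50 CPM in the knockdown. In the hindbrain and isthmus list 5 of 11 genes were tested, with 0 called and a median log2 difference of 1.39, beside 1.62 for the 15 dorsal genes. Its gene Hoxa2 was at 0.805, 0.253 and 0.144 CPM in the control and 0.528, 0.174 and 0.0239 CPM in the knockdown, a log2 difference of 3.11 that did not pass the test (edgeR, adjusted p = 0.279). Both libraries of number 1 were highest, as in Tcf7l2. Hoxb2, too low to be tested, was at 0.342 and 0.666 CPM in the libraries of number 1 and at 0 to 0.0290 CPM in the other 4. Among meningeal genes, Twist1 had a log2 difference of 2.58 between numbers 1 and 3 (edgeR, adjusted p = 0.366). Hoxa2, Hoxb2 and Twist1 were chosen after their values were seen. Of 10 tested radial glia and astrocyte genes 0 were called, with a median log2 difference of 0.26, beside 0.25 over all genes. Nes had the smallest p of that list, at 231, 124 and 144 CPM in the control and 199, 120 and 151 CPM in the knockdown. Its log2 difference of number 1 against number 2 was 0.81 (edgeR, adjusted p = 0.0714). Fabp7 had the same order, with 0.78 (edgeR, adjusted p = 0.0952). Summed levels of the hindbrain list were 64.2, 57.6 and 77.5 CPM for control replicates 1, 2 and 3, and 55.6, 61.2 and 76.0 CPM for knockdown replicates 1, 2 and 3. Dopamine neuron genes summed to 653, 677 and 772 CPM in the control and 638, 684 and 777 CPM in the knockdown, highest at number 3. The summed dorsal level was lowest there. Both libraries of number 3 lay below the rest in 9 of the 15 tested dorsal genes and above the rest in 1. Over all 17439 genes, this was so for 1248 and 1301. Floor plate genes summed to 1755, 1956 and 2104 CPM in the control and 1727, 2001 and 2016 CPM in the knockdown. Oligodendrocyte lineage genes, which share Tcf7l2 expression, summed to 453, 299 and 469 CPM in the control and 355, 289 and 371 CPM in the knockdown, lowest at number 2. The ribosomal RNA gene Rn28s1 took 4.02%, 2.90% and 2.98% of the counts of control replicates 1, 2 and 3, and 4.49%, 3.17% and 1.01% of those of knockdown replicates 1, 2 and 3. The part of cell composition and of RNA quality in the differences across numbers was not tested.

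**Figure D5:**
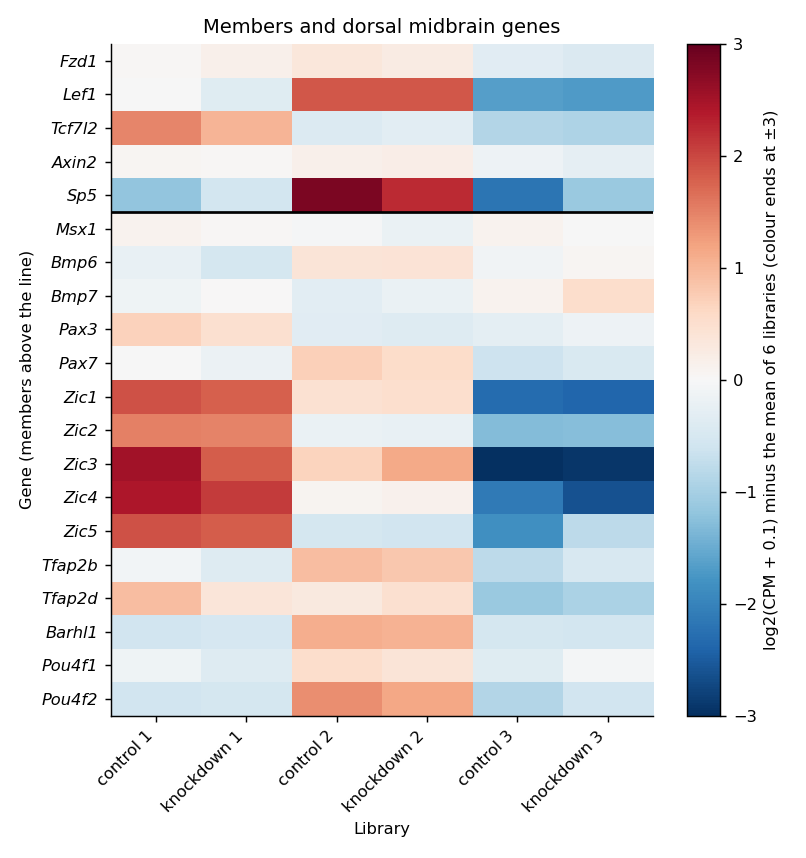
Log2(CPM + 0.1) minus the mean of the 6 libraries for 5 Wnt genes (above the line) and the 15 tested genes of the roof plate and dorsal midbrain, with libraries ordered by replicate number. Tcf7l2 is red at number 1 with the Zic genes, and Lef1 and Sp5 at number 2 with Barhl1 and Pou4f2.

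No further gene of the pathway passed the test in either comparison. Of 102 further Wnt genes in 6 lists, 90 were tested and 0 were called by edgeR, between the groups or across the numbers. Between the groups the log2 fold change was positive in 48 and negative in 42, its median was 0.00767, and 1 had an unadjusted p under 0.05. The groups did not overlap in 8 of the 90 (8.89%, beside 5.2% of all genes): Wnt2, Wnt6, Ctnnb1, Tnks and Tnks2 lay higher in the knockdown, and Ror2, Dvl2 and Tle4 lower. Dvl2 has 2 entries in the tables and held 440 counts in all beside a summed level of 8.12 to 13.7 FPKM, so its place among the 8 rests on few counts. Ctnnb1, which encodes beta-catenin, was at 668, 666 and 688 CPM in the control and 780, 700 and 694 CPM in the knockdown, a log2 fold change of 0.10. Wnt6 held the one unadjusted p under 0.05 (0.0155, edgeR), at 0.0732, 0.101 and 0.180 CPM in the control and 0.299, 0.522 and 0.263 CPM in the knockdown, with a log2 fold change of 1.63. It passed the filter on low counts through the knockdown libraries alone, the group where it was higher. Its p and its place among the 8 therefore support nothing.

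Across the numbers, 8 of the 90 genes (8.89%) had an unadjusted p under 0.05, beside 8.94% of all genes. Gbx2, which encodes a homeobox factor of the isthmus and hindbrain, had the smallest adjusted p among them, 0.0801 in edgeR's test, at 1.88, 0.227 and 0.252 CPM in the control and 1.52, 0.348 and 0.239 CPM in the knockdown. Both libraries of number 1 were high, as in Tcf7l2, Wnt1 and Zic1. In the machinery of the canonical branch, 0 of 28 tested genes were called, and Apc2, a neural scaffold gene of the complex that degrades beta-catenin, had the smallest p, with a log2 difference of 0.37 (adjusted p = 0.455). Among genes of planar cell polarity, 0 of 15 were called, and Rock1, an effector kinase gene, had 0.64 (adjusted p = 0.333). Among secretion and co-receptor genes, 0 of 16 were called, and the glypican gene Gpc4 had 0.42 (adjusted p = 0.466).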

How the data were processed

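The deposited counts are whole numbers per gene, with 1 table per library. Positions of the 38 genes in the files equal RefSeq's for GRCm38, the build named in the submitters' processing notes. The deposited FPKM tables carry Cufflinks columns, per the file headers. The version, 2.2.1, comes from the submitters' processing notes. The sources used here name neither the aligner nor the counter, and do not state whether strand was used. Read pairs of 150 bases came from a stranded kit after ribosomal RNA depletion, per the labels' protocols.

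Counts were filtered with filterByExpr (minimum count 10), scaled by TMM and tested with edgeR 4.0.16 (R 4.3.3) by quasi-likelihood, with Benjamini-Hochberg adjustment over all genes tested. The group comparison held the group alone, and the comparison across replicate numbers was an F-test of the numbers with the group as a term. The fits were also run on simulated data that held only the spread left after group and number. Those runs therefore cannot vouch for the group comparison, which holds the group alone. No 2 libraries of a group agreed within sampling noise (chi-square per degree of freedom 13.8 to 99.6), so none was counted as a duplicate. Alternatives were DESeq2 1.42.0, other scalings and filters, limma 3.58.1 on log2 FPKM, a replicate block and leaving out each library.

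The members and lists were chosen with earlier results of these data known. Statistics are given for the 12 tested members with the smallest p in each comparison, values by library also for the most abundant member of each role, and up to 3 genes of each list.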

Additional observations from a re-analysis of the deposited data

How the results depend on the processing

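Between the groups, 0 members were called under any alternative, with 24 to 38 of them tested. Over all genes 0 were called except 11 without a filter on low counts and 1 with DESeq2. Leaving out 1 library gave 0 called genes throughout. Of the 12 members with these values, none of which passed the test, 4 changed sign in their log2 fold change. Wnt7b ranged from -0.18 to 0.034, positive without control replicate 3. Tcf7l1 ranged from -0.25 to 0.13, positive without control replicate 1. Tcf7l2 ranged from -1.03 to 0.79, positive without control replicate 1 (0.79) or knockdown replicate 3 (0.07). Sfrp1 ranged from -0.019 to 0.18, negative without knockdown replicate 3. Others kept their sign but moved far: Wnt5b ranged from -0.37 to -0.015 (the latter without control replicate 3), Fzd7 from 0.025 (without knockdown replicate 1) to 0.25, Fzd9 from 0.027 (without knockdown replicate 1) to 0.18, Fzd2 from 0.11 (without control replicate 1) to 0.33, Sfrp2 from 0.13 to 0.34, Tcf7 from 0.11 to 0.59, Rspo3 from -0.44 to -0.13 and Wnt5a from 0.12 to 0.25.

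Across the numbers, the 38 genes had 5 calls without a filter on low counts (Wnt1 and Fzd1 added), 2 with at least 1 CPM in 3 libraries, where Sp5 was not tested, 4 with DESeq2, and 0 under each setting of limma on log2 FPKM. Over all genes, 741 were called without a filter and 225 with DESeq2, each including all 27 of the main test. With limma on log2(FPKM + 1) there were 17 calls, of which 1 was among the 27, and with limma on log2(FPKM + 0.1) and no filter 17, of which 0 were. Leaving out 1 library gave 3 to 4 calls among the 38 and 45 to 524 over all genes: 95 without control replicate 1, 290 without control replicate 2, 524 without control replicate 3, 141 without knockdown replicate 1, 45 without knockdown replicate 2 and 196 without knockdown replicate 3. A number left with 1 library is then assumed to vary like the rest. The cause was not tested for any of these.

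With the replicate number as a block, 0 genes and 0 of the 32 tested members were called between the groups. In edgeR's test the number of genes at an unadjusted p under 0.05 went from 191 to 258. The standard error of the group fold change went from 0.85 to 0.15 for Lef1, from 0.57 to 0.11 for Tcf7l2 and from 1.16 to 0.42 for Sp5, with log2 fold changes of -0.14, -0.14 and 0.13 and an adjusted p of 1.00 for each. Deviations from the group means of same-numbered libraries correlated across genes at 0.22 for number 1, 0.23 for number 2 and 0.04 for number 3. The pairing is therefore a hint from the data for numbers 1 and 2, and not every library correlated best with its own number. For genes under about 10 counts per library, such as Wnt1 and Wnt3a, depth limits what could be seen.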

Other observations

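Fzd6 is one of a class of genes whose counts cannot be read. The tables list 1766 genes more than once, and 1077 of these have 0 counts in every entry and library. Of the 1077, 205 had a mean of at least 0.5 FPKM in the entry under the plain gene name alone, not summed over entries. Fzd6, at a mean of 0.465 FPKM in that entry, is not among the 205. Celsr3, a cadherin gene of the polarity branch of Wnt signalling, was listed at 0 counts in both entries but summed to 20.6 to 34.4 FPKM over the 6 libraries. Dlk1, a gene of dopamine neurons, was listed at 0 counts and summed to 16.7 to 38.9 FPKM. The microglial gene Trem2 was listed at 0 counts and summed to 3.67 to 8.94 FPKM. Dvl2, an adaptor of the Frizzled receptors, held 440 counts in all and summed to 8.12 to 13.7 FPKM. Celsr3, Dlk1, Trem2 and Dvl2 were chosen after their values were seen.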
